A study of Mus musculus with 48 samples.

Results

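Fatty acid oxidation and peroxisome genes were followed in mouse kidney across doses and routes of vancomycin, a glycopeptide antibiotic whose dose-limiting toxicity is injury of the proximal tubule. Members were taken by gene symbol alone, as the named genes whose symbol starts with Acad, Acaa, Acat, Acox, Acot, Acsl, Acsm, Hadh, Ech, Cpt, Bdh or Pex. This gave 31 genes among 7859 named genes, of which 29 were bright enough to test among 5748 tested genes. The other members, Acot11 and Acot5, never exceeded a log2 intensity of 3.47, the median of the whole table, on any of the 48 arrays. A further 34 genes of these symbols on the array, among them Acaa2, Acadm, Acadl, Hadha, Acaa1a and Pex11a, were not analysed here by name.

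The study gave groups of 6 female BALB/c mice 7 daily doses and killed them on day 8. By the intravenous route (iv) the groups received saline or vancomycin at 50, 200 or 400 mg/kg, and by the intraperitoneal route (ip) a matching set of groups received saline or 50, 200 or 400 mg/kg. No allele, strain difference or other agent separated the groups. RNA from whole kidney of 1 mouse was hybridised to each single-colour Affymetrix array, so each level is an average over all kidney cells, and a smaller share of a cell type cannot be told apart from less RNA per cell. Values are log2 intensities, and the levels of different genes were not set against each other because each probe set has its own response.

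Gene names rest on a reconstruction, since the deposited values are out of step with the listed probe sets. In the 3 stretches of the table where the step was known, probe sets of 1 gene with levels above 5 correlated within groups with a mean r of 0.403 (1268 pairs) at the shifted position, against 0.146 (1086 pairs) as listed and 0.153 to 0.188 at neighbouring positions. For all 37 member rows the shifted position had the most supporting rows nearby. The fewest supporting rows were found around Acsl4 and Acot5 (11 each, against at most 5 and 7 at any other position) and around Acox2 and Acox3 (12 each, against at most 10). Acox2, Acox3 and Pex2 lie at the start of their stretch, with no supporting row before them. Without the shift, the direction of the main result was different: at iv 400 mg/kg, 15 genes bearing these symbols rose and 7 fell out of 51, and at ip 400 mg/kg 15 rose and 16 fell.

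In the kidney, the proximal tubule makes most of its ATP by oxidising fatty acids. Synthetases join fatty acids to coenzyme A, the carnitine shuttle carries long chains into mitochondria, and a repeating cycle of dehydrogenase, hydratase, dehydrogenase and thiolase steps shortens them. Peroxisomes shorten very long, branched and bile-acid-type chains first, thioesterases release free acids again, and peroxins build the peroxisome and import its enzymes. Many of these genes are known targets of PPAR alpha, a lipid-sensing nuclear receptor that binds DNA with RXR at a repeat of the letters AGGTCA.

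At 400 mg/kg, most of the measured genes fell by both routes. By iv, 16 of 29 fell and 2 rose against iv saline (limma, Benjamini-Hochberg adjusted p under 0.05 over all tested genes), beside 49.7% of all tested genes called, 19% down and 30.7% up. By ip, 23 of 29 fell and 3 were called higher, beside 61.3% of all tested genes called, 25.1% down and 36.3% up; of the 3, Cpt1c passed the brightness filter only through vancomycin arrays, so its call is not read. The split of all tested genes at ip 400 mg/kg moved with the setting, from 2086 up and 1440 down to 1815 and 1833 after quantile normalisation (24 members down and 3 up) and to 2214 and 2605 with no filter (23 down and 3 up). At iv 400 mg/kg the share of all tested genes called down ran from 13.8% with no filter to 24.9% after quantile normalisation, against 19%. The median log2 fold change of the 29 genes was -0.63 by iv and -0.89 by ip, where the median over all tested genes was 0.09 and 0.11. Every treated mouse was below every saline mouse for 5 genes by iv (6.87% of all tested genes) and for 18 by ip (17.2%). A fall of more than 2-fold was estimated in 10 genes by iv and 13 by ip among those called, beside 5.57% and 8.39% of all tested genes. All 16 genes that fell by iv also fell by ip (100% of the iv list and 69.6% of the ip list), and in all 16 the ip estimate lay further below 0. The limma test of the route difference called none of these 16, and for Bdh1 the difference was only -0.03 ± 0.42. How often the same holds over all tested genes was not computed. The arrays of the routes also differ in brightness, so route and array set cannot be told apart in this comparison. Quantile normalisation moved the median of all tested genes at ip 400 mg/kg from 0.11 to -0.01, so the sizes given here are relative to a centre uncertain by that much.

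**Figure D1:**
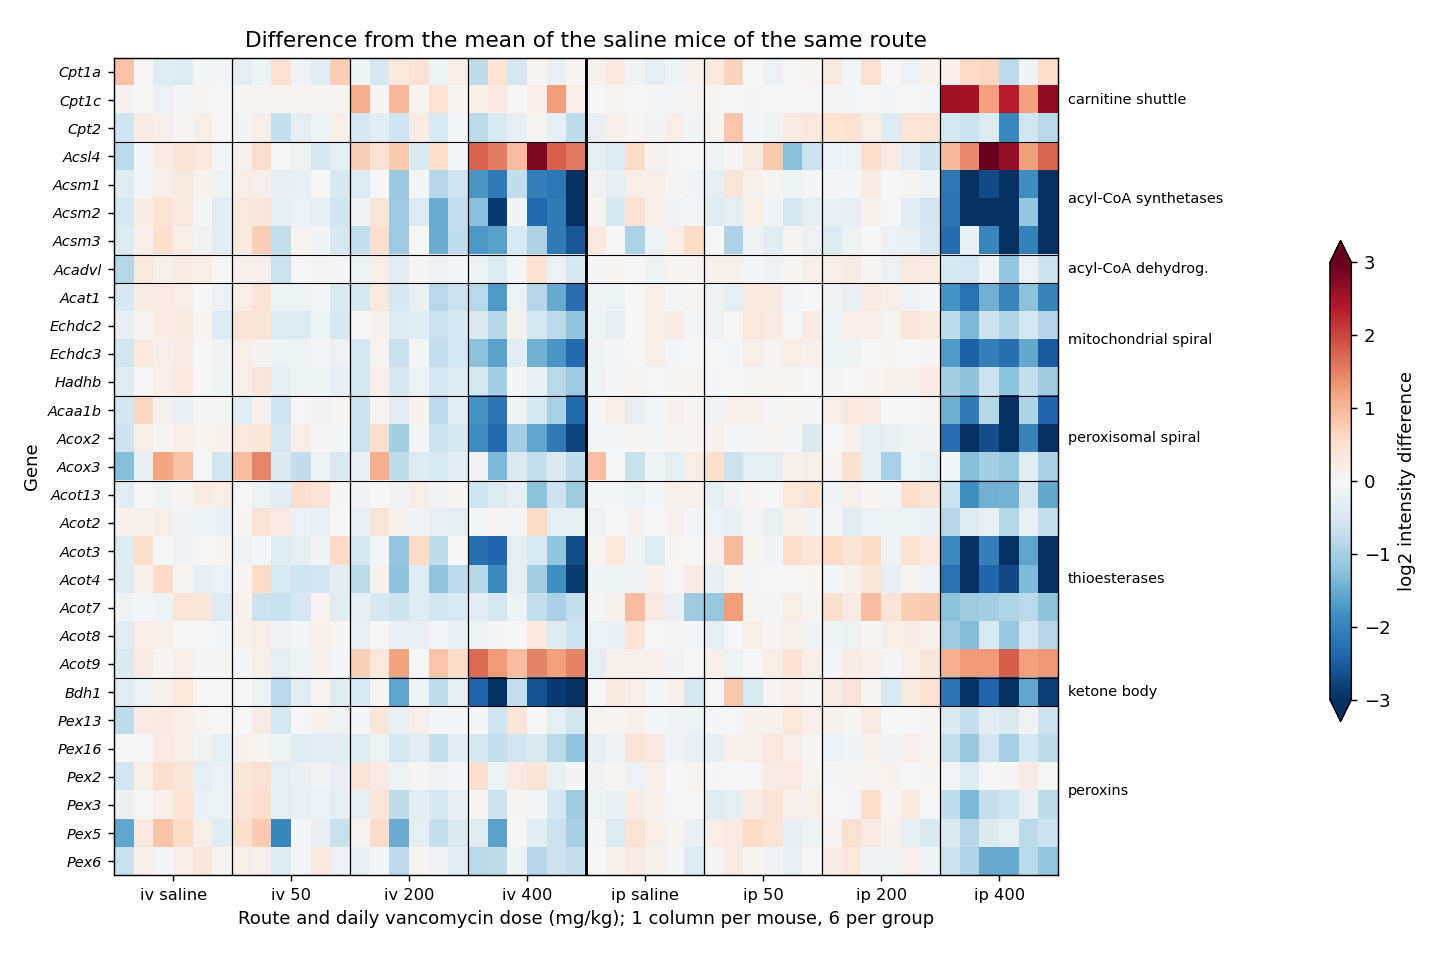
Each column is 1 mouse and each row 1 of the 29 tested genes. Colour gives the difference in log2 intensity from the mean of the saline mice of the same route. The scale ends at 3 in either direction, and rows are grouped by role. The label mitochondrial spiral covers Hadhb, the ketone body and isoleucine thiolase Acat1, and the hydratase-domain genes Echdc2 and Echdc3. Cpt1c is drawn with the carnitine shuttle. In the 400 mg/kg groups of both routes most columns are mainly blue, less so in iv mouse 45 (median -0.14). Acsl4 and Acot9 are red there by both routes and Cpt1c by ip, while Cpt1a and Pex2 lie near 0 on average. Iv 200 mg/kg is partly blue, and the remaining groups are close to 0 apart from scattered mice.

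**Figure D2:**
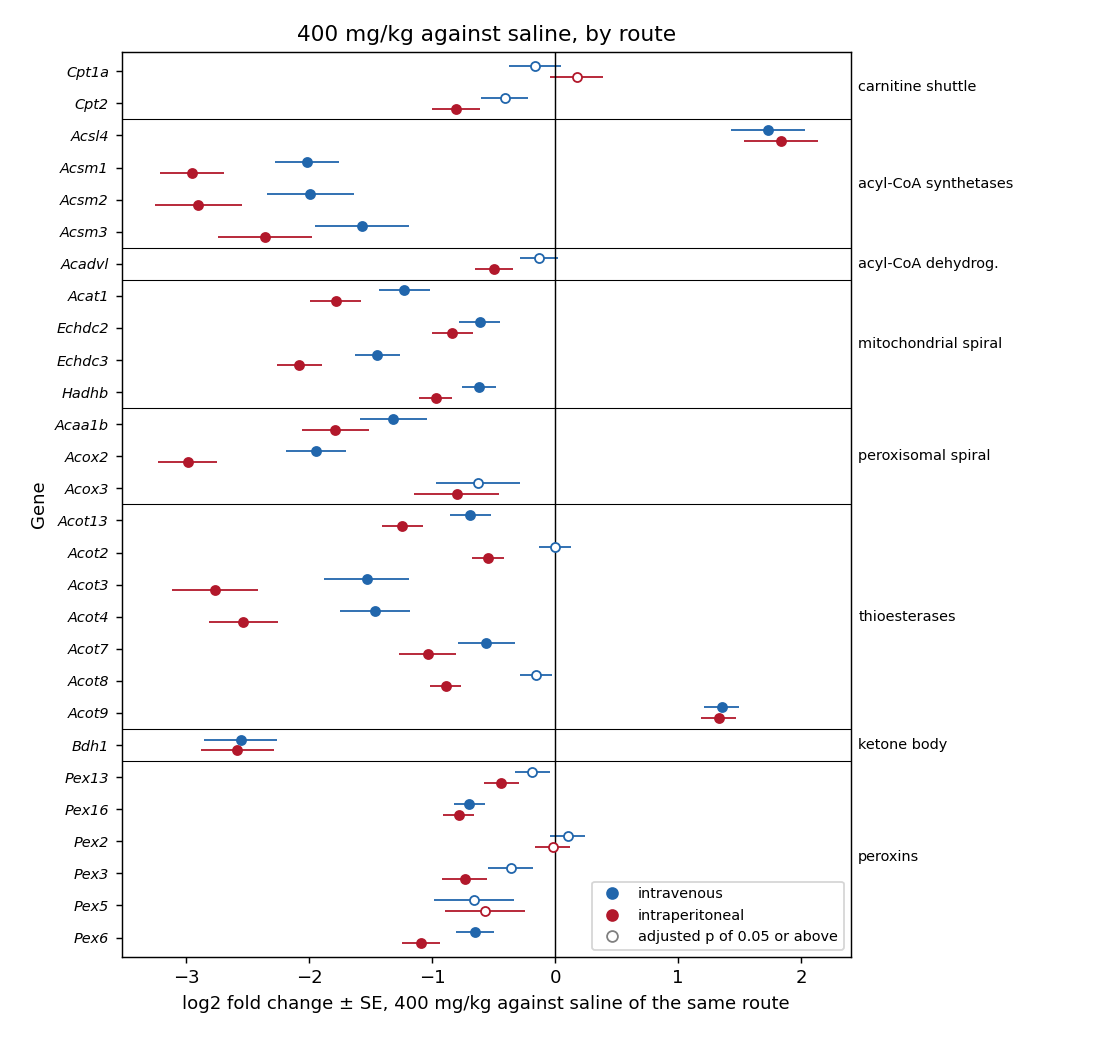
Points give the log2 fold change of 400 mg/kg against saline of the same route with its standard error (6 mice against 6), blue for intravenous and red for intraperitoneal; open points have an adjusted p of 0.05 or above. Bdh1, the Acsm genes, Acox2, Acot3 and Acot4 lie furthest left, Acsl4 and Acot9 lie right of 0 by both routes, and Cpt1c, at background in saline, is not drawn.

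The promoters of the members were searched for the element that PPAR and RXR bind. RefSeq start regions (GRCm38.p6, 250 bases before to 50 after the start) were matched for 28 of the 31 genes; Acat1, Acot13 and Pex2 were not matched. The full element, searched as 2 copies of AGGTCA in 1 direction with 1 base of any kind between them, on either strand, was in the window of 0 of 28 members and of 0.0481% of all 27025 genes searched. Only 13 genes in all had this exact match, so 0 of 28 cannot show that the members lack the element. Copies with other letters or outside the window were not searched. The half-site AGGTCA, which the full element contains and which was searched on both strands, was in 8 of 28 members (28.6%), namely Acadvl, Acot3, Acot4, Acot5, Acsm1, Cpt1a, Cpt1c and Echdc3, and in 18.1% of all genes. The stretches around it are shown for 3 genes that fell by both routes (Acsm1, Acot4 and Echdc3) and for 2 that did not pass the test by iv (Cpt1a and Acadvl), 5′ to 3′ on the strand of the gene, with the half-site in capitals (TGACCT is its reverse complement).
Acsm1 (chr7:119617685-119617730, plus strand): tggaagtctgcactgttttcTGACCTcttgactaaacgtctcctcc
Acot4 (chr12:84038346-84038378, plus strand): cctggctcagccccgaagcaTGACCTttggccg
Echdc3 (chr2:6213155-6213200, minus strand): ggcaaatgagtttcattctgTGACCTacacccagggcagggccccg
Cpt1a (chr19:3323187-3323232, plus strand): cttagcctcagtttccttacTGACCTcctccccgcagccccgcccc
Acadvl (chr11:70015490-70015535, minus strand): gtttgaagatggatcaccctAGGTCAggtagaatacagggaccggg
The stretches shown include genes that fell by both routes and Cpt1a, which passed the test by neither. Whether the half-site goes with the falls was not tested. A letter match is not a measured binding site.

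Of the carnitine shuttle genes Cpt1a and Cpt2, neither passed the test at iv 400 mg/kg (limma, Cpt2 at an unadjusted p of 0.0401), and at ip 400 mg/kg Cpt2 fell. Cpt1a encodes the liver-type outer membrane carnitine palmitoyltransferase, the rate-setting step of mitochondrial entry. Its log2 intensity ran from 9.04 to 10.30 (median 9.39) in iv saline and from 8.67 to 9.86 (median 9.36) at iv 400 mg/kg. The ip saline mice lay between 10.32 and 10.91 (median 10.61) and the ip 400 mg/kg mice between 9.84 and 11.26 (median 10.97). The groups overlapped by both routes, and the log2 fold changes were -0.16 ± 0.22 (SE, adjusted p = 0.56, limma) and 0.18 ± 0.22 (adjusted p = 0.49). Without iv saline mouse 1, which had the level of 10.30, the iv estimate was 0.01. The probe set used for Cpt1a is of a class (x_at) that may match other transcripts.

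Cpt2, the inner membrane partner of Cpt1a, ran from 9.91 to 10.74 (median 10.59) in iv saline and from 9.73 to 10.59 (median 10.14) at iv 400 mg/kg. In ip saline it ran from 10.39 to 10.83 (median 10.59), and at ip 400 mg/kg from 8.69 to 10.22 (median 10.02), below every saline mouse. Its log2 fold change was -0.41 ± 0.19 by iv (adjusted p = 0.075, limma) and -0.81 ± 0.19 by ip (adjusted p = 0.0004). The iv value passed the threshold without iv saline mouse 1 (-0.53, adjusted p = 0.023) and without iv 400 mg/kg mouse 46 (-0.51, adjusted p = 0.032).

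Cpt1c, the brain-type member of the family, sits in the endoplasmic reticulum. It was near background in ip saline, from 2.29 to 2.37 (median 2.33), and from 3.56 to 4.98 (median 4.75) at ip 400 mg/kg, above every ip saline mouse. In iv saline it ran from 2.33 to 2.62 (median 2.52), and at iv 400 mg/kg from 2.50 to 3.75 (median 2.70), with 1 mouse, number 47, above 3.47. The gene passed the brightness filter through 9 arrays, all from vancomycin groups and 6 of them the ip 400 mg/kg arrays. Because the filter itself selected it on these arrays and its saline level is at background, its levels are given as a description, with no fold change or p.

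Among the acyl-CoA synthetases, 3 of 4 genes fell and Acsl4 rose, by both routes. Over all tested genes, 19% fell and 30.7% rose by iv, and 25.1% fell and 36.3% rose by ip. Acsm1, Acsm2 and Acsm3 are mitochondrial medium-chain synthetases, and they lie near each other on chromosome 7, Acsm2 next to Acsm1 and Acsm3 after 3 other coding genes. Acsm1 ran from 10.91 to 11.53 (median 11.31) in iv saline and from 7.98 to 10.53 (median 9.19) at iv 400 mg/kg. For ip the ranges were 11.57 to 12.02 (median 11.80) in saline and 7.94 to 9.96 (median 8.74) at 400 mg/kg. No mouse at 400 mg/kg reached a saline mouse of its route, with log2 fold changes of -2.02 ± 0.26 (adjusted p = 1.2e-08, limma) and -2.96 ± 0.26 (adjusted p = 2.4e-13), a fall of 4.06-fold and 7.75-fold.

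Acsm2, whose human counterpart activates benzoate and other acids for conjugation with glycine, ran from 12.02 to 12.95 (median 12.63) in iv saline and from 9.27 to 12.39 (median 10.31) at iv 400 mg/kg. After ip dosing it was 8.80 to 11.69 (median 9.76) at 400 mg/kg against 12.38 to 13.32 (median 12.85) in saline. The iv groups overlapped and the ip groups did not, and the log2 fold changes were -1.99 ± 0.36 (adjusted p = 7.9e-06, limma) and -2.90 ± 0.36 (adjusted p = 1.6e-09). The other rows of Acsm2 gave -1.88 and -0.83 by iv and -2.40 and -1.61 by ip, of which the smaller came from a dim probe set. Acsm3 fell by 1.57 ± 0.38 by iv (adjusted p = 0.00058, limma) and by 2.36 ± 0.38 by ip (adjusted p = 7e-07). Its ip 400 mg/kg mice spread widely, from 2.87 to 4.80 in 5 mice with mouse 104 at 6.58, within the saline range of 5.86 to 7.35.

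Acsl4 moved the other way from the Acsm genes. It encodes a long-chain synthetase that prefers arachidonate and is known for loading membranes with polyunsaturated chains. Its level ran from 5.17 to 6.36 (median 6.07) in iv saline and from 6.90 to 8.75 (median 7.65) at iv 400 mg/kg. In ip saline it ran from 6.12 to 7.09 (median 6.54) and at ip 400 mg/kg from 7.49 to 9.53 (median 8.12). All treated mice were above all saline mice of their route, with log2 fold changes of 1.73 ± 0.30 (adjusted p = 4.5e-06, limma) and 1.84 ± 0.30 (adjusted p = 8.8e-07). The only probe set named for Acsl4 is of a class (s_at) that may match other transcripts.

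Among the mitochondrial genes read beside the oxidation cycle, Hadhb of the cycle itself fell by both routes. So did the thiolase Acat1 and the hydratase-domain genes Echdc2 and Echdc3, which were not taken as steps of the cycle. The dehydrogenase Acadvl fell by ip. Falls were called for 19% of all tested genes by iv and for 25.1% by ip. Acadvl, very long-chain acyl-CoA dehydrogenase and the only dehydrogenase of the first step named here, ran from 10.50 to 11.68 (median 11.53) in iv saline and from 10.88 to 11.79 (median 11.20) at iv 400 mg/kg, and the estimate was -0.14 ± 0.16 (adjusted p = 0.49, limma). By ip it ran from 11.45 to 11.64 (median 11.60) in saline and from 10.42 to 11.50 (median 11.08) at 400 mg/kg, with some overlap and a log2 fold change of -0.50 ± 0.16 (adjusted p = 0.0049, limma). Hadhb, the thiolase-bearing beta subunit of the trifunctional protein, fell by 0.62 ± 0.14 by iv (adjusted p = 0.00016, limma) and by 0.97 ± 0.14 by ip (adjusted p = 2.9e-08). Its ip mice at 400 mg/kg, from 10.63 to 11.21 (median 10.82), were all below the saline mice at 11.70 to 11.94 (median 11.88), while by iv the range of 10.59 to 11.63 (median 11.01) reached into the saline range of 11.32 to 11.99 (median 11.70).

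Echdc3 and Echdc2 encode mitochondrial proteins with an enoyl-CoA hydratase domain. Echdc3 ran from 8.41 to 9.27 (median 9.05) in iv saline and from 6.64 to 8.65 (median 7.45) at iv 400 mg/kg. The ip saline mice lay between 9.27 and 9.56 (median 9.35) and the ip 400 mg/kg mice between 6.88 and 7.85 (median 7.22). The ip groups did not overlap and the iv groups did, with log2 fold changes of -1.45 ± 0.18 (adjusted p = 8.1e-09, limma) and -2.08 ± 0.18 (adjusted p = 2.3e-13). Echdc2 fell by 0.61 ± 0.17 by iv and by 0.84 ± 0.17 by ip (adjusted p = 0.0023 and 3.3e-05, limma).

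Acat1, the mitochondrial acetoacetyl-CoA thiolase, works in both ketone body and isoleucine breakdown. It ran from 11.21 to 11.94 (median 11.78) in iv saline and from 9.41 to 11.50 (median 10.51) at iv 400 mg/kg, and fell by 1.23 ± 0.21 (adjusted p = 3e-06, limma). For ip the ranges were 12.04 to 12.41 (median 12.20) in saline and 9.96 to 10.97 (median 10.31) at 400 mg/kg, without overlap, and the gene fell by 1.78 ± 0.21 (adjusted p = 4.4e-10, limma). A second row of the gene gave -1.71 and -2.08.

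Bdh1 encodes mitochondrial 3-hydroxybutyrate dehydrogenase, which interconverts the main ketone bodies, and had the lowest iv estimate among the 29 genes. In iv saline it ran from 6.93 to 7.57 (median 7.25), and at iv 400 mg/kg from 3.58 to 6.53 (median 4.50). In ip saline it ran from 7.46 to 8.22 (median 7.99), and at ip 400 mg/kg from 4.34 to 6.38 (median 5.36). No treated mouse reached the saline range of its route. The log2 fold changes of -2.56 ± 0.30 (adjusted p = 1.2e-09, limma) and -2.58 ± 0.30 (adjusted p = 3.5e-10) correspond to falls of 5.89-fold and 6.0-fold, and their difference was -0.03 ± 0.42 (adjusted p = 0.98). The lowest iv level, 3.58, lies near the table median of 3.47.

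Of the 3 genes for peroxisomal oxidation, 2 fell by iv and 3 by ip, beside 19% and 25.1% of all tested genes. Acox2, the oxidase for branched chains and bile acid intermediates, had the lowest ip estimate. It ran from 9.80 to 10.62 (median 10.51) in iv saline and from 7.64 to 9.41 (median 8.43) at iv 400 mg/kg. After ip dosing it was 6.90 to 8.89 (median 7.86) at 400 mg/kg against 10.84 to 10.96 (median 10.90) in saline. The treated mice were below all saline mice by both routes, with log2 fold changes of -1.95 ± 0.24 (adjusted p = 5.6e-09, limma) and -2.99 ± 0.24 (adjusted p = 1.9e-14), a fall of 3.85-fold and 7.95-fold.

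Acaa1b, a peroxisomal 3-ketoacyl-CoA thiolase, ran from 12.54 to 13.70 (median 13.09) in iv saline and from 10.75 to 12.99 (median 11.72) at iv 400 mg/kg. By ip it ran from 12.75 to 13.18 (median 13.00) in saline and from 9.99 to 12.14 (median 11.21) at 400 mg/kg. The iv groups overlapped and the ip groups did not, and it fell by 1.32 ± 0.27 and by 1.79 ± 0.27 (adjusted p = 8.3e-05 and 2.5e-07, limma). Acaa1b has a near-identical paralog, Acaa1a, that the probes could also detect. Acox3, the pristanoyl-CoA oxidase, was dim and variable, from 3.29 to 5.74 in iv saline. Its log2 fold change was -0.63 ± 0.34 by iv (adjusted p = 0.13, limma) and -0.80 ± 0.34 by ip (adjusted p = 0.04). The iv value passed the threshold without iv saline mouse 1 (-0.88, adjusted p = 0.03), and the ip call was lost on leaving out any of ip saline mice 61, 62 and 66 or ip 400 mg/kg mice 104, 105, 106 and 108 (adjusted p from 0.055 to 0.13).

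**Figure D3:**
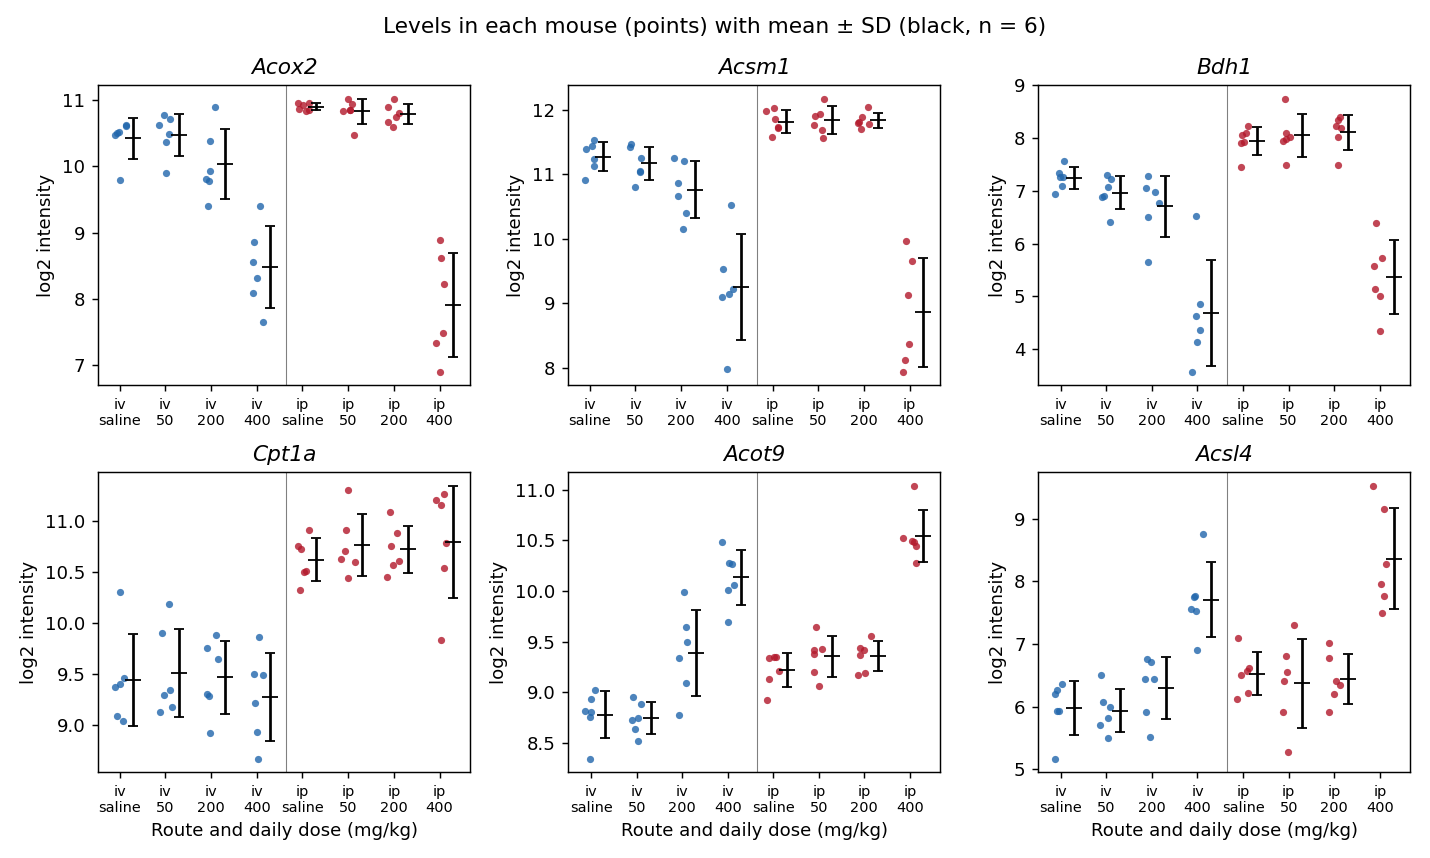
Each point is the log2 intensity of 1 mouse, with the mean and SD of its 6 mice beside it in black; blue groups are intravenous and red groups intraperitoneal, in order of daily dose in mg/kg. Acox2, Acsm1 and Bdh1 lie low at 400 mg/kg, Acot9 and Acsl4 lie high, and Cpt1a overlaps across doses while differing in level between the sets of arrays of the 2 routes.

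Among 7 thioesterases tested, the iv contrast gave 4 falls and 1 rise, and the ip contrast 6 falls and 1 rise. The shares called over all tested genes were 49.7% by iv (19% down) and 61.3% by ip (25.1% down). Acot3 and Acot4 are peroxisomal, the first acting on long chains and the second on succinyl-CoA and related dicarboxylic acids, and they are neighbours in a cluster on chromosome 12 that also holds Acot2 and Acot5. Acot3 ran from 8.66 to 9.60 (median 9.07) in iv saline and from 6.43 to 8.80 (median 7.36) at iv 400 mg/kg. The ip saline mice lay between 8.90 and 9.59 (median 9.28) and the ip 400 mg/kg mice between 4.68 and 7.68 (median 6.71). The ip groups did not overlap and the iv groups did, and the log2 fold changes were -1.53 ± 0.35 (adjusted p = 0.00027, limma) and -2.77 ± 0.35 (adjusted p = 3e-09).

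Acot4 ran from 7.43 to 8.42 (median 7.76) in iv saline and from 4.96 to 7.53 (median 6.37) at iv 400 mg/kg. For ip the ranges were 8.00 to 8.34 (median 8.07) in saline and 4.79 to 6.81 (median 5.58) at 400 mg/kg. The iv groups overlapped at their edges and the ip groups did not. Acot4 fell by 1.47 ± 0.28 and by 2.54 ± 0.28 (adjusted p = 2.5e-05 and 1.2e-10, limma), and its dimmer second row gave -0.95 and -1.71. The genes of this cluster are related copies, and the Acot3 probe set is of a class (s_at) that can match several transcripts. Their values may therefore be shared, and probe sequences were not compared. The levels of Acot2, a mitochondrial member of the cluster, lay near the table median, at 3.48 to 3.87 in iv saline, with an iv estimate of 0.00 ± 0.13 (adjusted p = 0.99, limma). By ip Acot2 fell by 0.54 ± 0.13 (adjusted p = 0.00032, limma), from 3.76 to 4.05 in saline to 3.07 to 3.71 at 400 mg/kg.

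Acot13, a thioesterase associated with mitochondria, fell by 0.69 ± 0.17 by iv and by 1.24 ± 0.17 by ip (adjusted p = 0.00054 and 1.3e-08, limma). Acot7, a cytosolic thioesterase known from brain, fell by 0.56 ± 0.23 by iv (adjusted p = 0.042, limma) and by 1.04 ± 0.23 by ip (adjusted p = 0.00016). Its iv call was lost on leaving out any of iv saline mice 2, 4 and 5 or iv 400 mg/kg mice 44, 46, 47 and 48 (adjusted p from 0.053 to 0.1). Acot8, a peroxisomal thioesterase of broad substrate range, ran from 8.41 to 8.95 (median 8.77) in iv saline and from 8.15 to 9.04 (median 8.65) at iv 400 mg/kg, with an estimate of -0.15 ± 0.13 (adjusted p = 0.32, limma). After ip dosing it was 7.65 to 8.48 (median 7.97) at 400 mg/kg against 8.74 to 9.35 (median 8.92) in saline, without overlap, and the gene fell by 0.89 ± 0.13 (adjusted p = 5.9e-08, limma).

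Acot9, a mitochondrial thioesterase, was the thioesterase that rose. In iv saline it ran from 8.34 to 9.02 (median 8.81), and at iv 400 mg/kg from 9.70 to 10.49 (median 10.16). In ip saline it ran from 8.92 to 9.35 (median 9.27), and at ip 400 mg/kg from 10.28 to 11.04 (median 10.49). Every treated mouse was above every saline mouse of its route, and the log2 fold changes were 1.36 ± 0.14 (adjusted p = 8.1e-11, limma) and 1.33 ± 0.14 (adjusted p = 4.8e-11).

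Of 6 peroxins tested, 2 fell by iv and 4 by ip, with estimates between -1.09 and 0.10 over both routes. Calls in either direction covered 49.7% of all tested genes by iv (19% down) and 61.3% by ip (25.1% down). Pex16, which with Pex3 places membrane proteins into the peroxisome, ran from 7.84 to 8.37 (median 8.13) in iv saline and from 6.95 to 7.68 (median 7.51) at iv 400 mg/kg. By ip it ran from 8.24 to 8.88 (median 8.40) in saline and from 7.36 to 7.96 (median 7.77) at 400 mg/kg. The groups did not overlap by either route, with log2 fold changes of -0.70 ± 0.13 (adjusted p = 1e-05, limma) and -0.79 ± 0.13 (adjusted p = 6.8e-07). Pex6, an ATPase that recycles the import receptor, fell by 0.65 ± 0.16 by iv and by 1.09 ± 0.16 by ip (adjusted p = 0.00052 and 6e-08, limma). Its probe set is also of the s_at class.

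Pex3 and Pex13, the latter part of the docking complex for imported enzymes, passed the test by ip and not by iv. Pex3 had a log2 fold change of -0.74 ± 0.18 by ip (adjusted p = 0.00052, limma) and -0.36 ± 0.18 by iv (adjusted p = 0.093). Pex13 had -0.44 ± 0.14 by ip (adjusted p = 0.0062, limma) and -0.18 ± 0.14 by iv (adjusted p = 0.28). Their iv values passed the threshold on leaving out 1 mouse, iv 400 mg/kg mouse 45 for Pex3 (-0.45, adjusted p = 0.043) and iv saline mouse 1 for Pex13 (-0.34, adjusted p = 0.024).

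Pex5 encodes the receptor that carries most enzymes into the peroxisome. Its iv saline mice spread from 5.63 to 8.05 (median 7.42) and its iv 400 mg/kg mice from 5.59 to 7.16 (median 6.67). The estimate was -0.66 ± 0.33 by iv (adjusted p = 0.091, limma) and -0.57 ± 0.33 by ip (adjusted p = 0.13). Without iv saline mouse 1, at the lowest saline level, the iv value was -0.97 (adjusted p = 0.0088), and a second, dimmer row gave -0.61 by iv and -1.07 by ip. Pex2, a ubiquitin ligase of the import machinery, had estimates near 0, at 0.10 ± 0.14 by iv (adjusted p = 0.58, limma) and -0.02 ± 0.14 by ip (adjusted p = 0.91), signs that turned on leaving out a single mouse.

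At lower doses few members passed the test. At iv 200 mg/kg, 1 of 29 genes rose and 1 fell, beside 7.36% of all tested genes called (6.07% up and 1.29% down), with 6 of 29 at an unadjusted p under 0.05 and a median log2 fold change of -0.29 against 0.07 over all tested genes. Acot9 rose by 0.61 ± 0.14 (adjusted p = 0.0038, limma), with 5 mice above the highest saline mouse and mouse 28 at 8.77. Pex16 fell by 0.39 ± 0.13 (adjusted p = 0.048, limma), from 7.43 to 7.97 (median 7.79), in part overlapping iv saline. With array weights 13 genes fell and 1 rose, beside 24.3% of all tested genes called (10.5% down) under that setting. Leaving out the 4 arrays that stand apart left none called, beside 4.35% of all tested genes, so the count at this dose depends on how single arrays are treated.

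At iv 50 mg/kg no member passed the test (limma, none at an unadjusted p under 0.05), beside 0.539% of all tested genes called. At ip 50 mg/kg and ip 200 mg/kg no member passed either, beside 0.087% of all tested genes called at each dose, with none and 1 of 29 at an unadjusted p under 0.05. The estimates ran from -0.33 to 0.11 at iv 50 mg/kg, from -0.25 to 0.32 at ip 50 mg/kg and from -0.24 to 0.60 at ip 200 mg/kg, the last of these extremes being Acot7.

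The step from 200 to 400 mg/kg was tested directly. By iv, 12 of 29 genes were lower and 2 higher at 400 than at 200 mg/kg, beside 31.2% of all tested genes called (17.8% up and 13.4% down), with a median log2 difference of -0.31. By ip, 22 were lower and 3, Cpt1c among them, higher, beside 60.6% of all tested genes called (35.2% up and 25.3% down), with a median of -1.04. Bdh1 fell by 2.02 ± 0.30 from 200 to 400 mg/kg by iv (adjusted p = 1.1e-06, limma) and Acot3 by 3.13 ± 0.35 by ip (adjusted p = 1.4e-10). This contrast shares the 400 mg/kg mice with the contrast against saline.

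The effect of 400 mg/kg differed between routes for 2 of 29 genes, beside 4.31% of all tested genes called (2.94% up and 1.37% down), and 9 of 29 had an unadjusted p under 0.05. Of the 2 called genes, Cpt1c was tested only because of its level on vancomycin arrays, and its difference is not read. Acot8 fell more by ip, with a difference of -0.73 ± 0.18 (adjusted p = 0.011, limma). Route and array set cannot be told apart in tests of the route difference, since the arrays of the routes also differ in brightness. For the remaining genes the difference missed the threshold, including Acox2 at -1.05 ± 0.34 (adjusted p = 0.067) and Acot3 at -1.23 ± 0.49 (adjusted p = 0.15), intervals that still allow differences of more than 2-fold. Cpt2, Acadvl, Acot2, Acox3, Pex3 and Pex13, called by ip and not by iv, also missed the threshold in the test of the difference (adjusted p from 0.077 to 0.89, limma). At 200 mg/kg the route difference was called for none of 29 genes (limma, 3 at an unadjusted p under 0.05), beside 0.974% of all tested genes.

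Levels in saline mice were set side by side by route without a test, since the arrays of the routes also differ in brightness: the 90th percentile of the log2 intensities ran from 8.28 to 8.75 on the iv arrays and from 9.07 to 9.23 on the ip arrays. Of the 29 genes, 27 were higher in ip saline, by a median of 0.38, where 87.1% of all tested genes were higher, by a median of 0.41. Cpt1a was furthest apart, at 9.44 ± 0.45 (SD, n = 6) in iv saline and 10.62 ± 0.21 (SD, n = 6) in ip saline. Acaa1b and Cpt1c were lower in ip saline, at 13.00 ± 0.15 against 13.09 ± 0.38 and 2.33 ± 0.03 against 2.51 ± 0.10 (SD, n = 6). Route and array set cannot be told apart here.

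Mice of a dose group differed in how far the 29 genes had moved. The median difference of the 29 genes from the iv saline mean was -1.06 in iv 400 mg/kg mouse 48, -0.77 in mouse 44, -0.65 in mouse 47, -0.53 in mouse 43, -0.45 in mouse 46 and -0.14 in mouse 45. The ip 400 mg/kg mice ran from -1.20 to -0.55. At iv 200 mg/kg the medians were -0.52 in mice 27 and 29, -0.31 in mouse 30, -0.23 in mouse 25, -0.07 in mouse 28 and 0.11 in mouse 26. Iv saline mouse 1 stood at -0.42, on an array where the median of all tested genes was also low, at -0.31.

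Kidney markers were bright in saline mice, and at 400 mg/kg cell and injury markers moved along with the members. Low member medians also occurred without a rise of the injury marker Havcr1. They were found in iv saline mouse 1 (-0.42, Havcr1 10.05) and iv 50 mg/kg mouse 9 (-0.345, Havcr1 9.63). On both arrays the median of all tested genes was low too, at -0.31 and -0.30. All 11 tested proximal tubule markers fell by both routes, with a median log2 fold change of -2.0 by iv and -2.91 by ip; their summed level ran from 15.37 to 16.11 in iv saline and 12.93 to 14.99 at iv 400 mg/kg, and from 15.95 to 16.15 in ip saline and 12 to 14.14 at ip 400 mg/kg. In iv 400 mg/kg mouse 45 the median of these markers was -0.79 and in the other iv 400 mg/kg mice -3.51 to -1.87. At iv 200 mg/kg, mice 26 and 28 had levels of the injury marker Havcr1 of 10.72 and 9.95, and the remaining mice 12.53 to 13.74. At 400 mg/kg, 19% of all tested genes were called lower by iv and 25.1% by ip. The marker list was chosen with earlier results of these data known, so its count is not independent of them. The part of this marker loss in the values above was not tested.

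**Figure D4:**
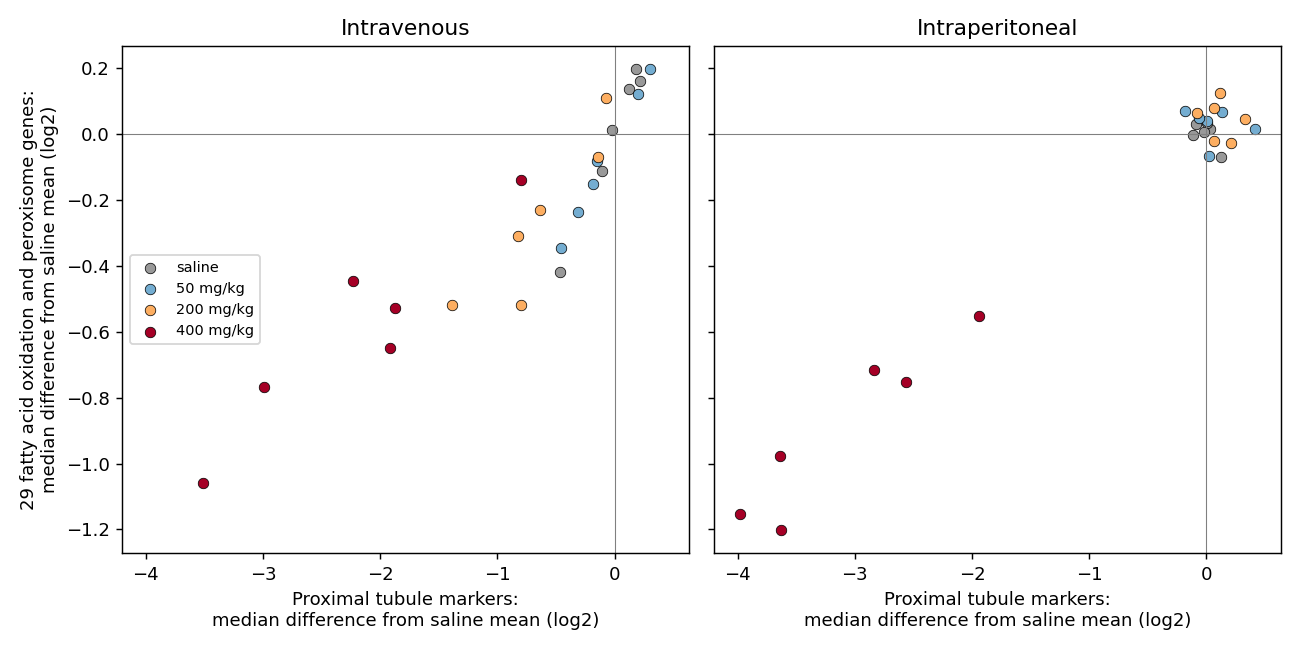
Each point is 1 mouse: the horizontal axis gives the median log2 difference of 11 proximal tubule markers from the saline mean of its route, and the vertical axis that of the 29 fatty acid oxidation and peroxisome genes. The 400 mg/kg mice of both routes lie low on both axes, apart from iv 400 mg/kg mouse 45 (-0.79 and -0.14). That mouse lies among the iv 200 mg/kg mice on both axes. Iv saline mouse 1 (-0.42) lies below it on the vertical axis. The ip 50 and 200 mg/kg mice cluster around 0.

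Macrophage markers rose, 10 of 11 by iv (median log2 fold change 3.16) and 11 of 11 by ip (4.29). Their summed level ran from 9.38 to 9.65 in iv saline and 12.4 to 13.84 at iv 400 mg/kg, and from 9.37 to 10.29 in ip saline and 13.57 to 14.82 at ip 400 mg/kg. Loop and distal tubule markers fell in 8 of 8 cases by both routes (medians -1.65 and -1.94), and 6 of 6 tubular injury markers rose (3.85 and 3.41). The adrenal markers Star and Cyp21a1 and the skeletal muscle markers Ckm and Myh4 were not above the brightness filter, nor were Lep (fat) and Apoh (liver). Of 3 tested fat cell markers, none passed the test by iv and Fabp4 alone rose by ip (0.70 ± 0.24, adjusted p = 0.01, limma), with summed levels of 11.19 to 13.11 in iv saline, 12.03 to 12.84 at iv 400 mg/kg, 11.64 to 13.33 in ip saline and 12.18 to 13.98 at ip 400 mg/kg. Alb, the liver marker tested, fell by 2.61 ± 0.40 by iv and by 3.26 ± 0.40 by ip (adjusted p = 5.4e-07 and 2.2e-09, limma). These marker lists were also chosen with earlier results of these data known, so their counts are a description. Shares over all tested genes were 30.7% up and 19% down by iv, and 36.3% up and 25.1% down by ip. The part these cell types play in the values above was not tested.

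Genes that work alongside the members, taken from lists by function, were read in the same contrasts. Of 15 other peroxisomal enzymes and transporters tested, 9 were lower by iv and 13 by ip and none was higher, with medians of -0.59 and -0.82. Lower calls made up 19% of all tested genes by iv and 25.1% by ip. Pxmp2, a channel of the peroxisomal membrane, fell by 2.40 ± 0.28 and by 3.06 ± 0.28, and Amacr, the racemase that prepares branched chains for Acox2, by 1.43 ± 0.19 and by 2.02 ± 0.19 (limma, adjusted p from 4.6e-13 to 3.5e-08). Hsd17b4, the multifunctional enzyme after the oxidases, had -0.08 ± 0.16 by iv and -0.33 ± 0.16 by ip (adjusted p = 0.7 and 0.081, limma).

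Of 9 partner genes of mitochondrial oxidation, 6 were lower and 1 higher at iv 400 mg/kg, and 7 lower and 1 higher at ip 400 mg/kg. Across all tested genes 19% were lower and 30.7% higher by iv, and 25.1% lower and 36.3% higher by ip. The list also holds the acetyl-CoA carboxylases Acaca and Acacb, whose product malonyl-CoA blocks fatty acid entry into mitochondria. Acacb fell by 1.07 ± 0.26 and by 0.93 ± 0.26 (adjusted p = 0.00053 and 0.0018, limma) and is among the lower genes by both routes, while Acaca had -0.59 ± 0.29 and -0.63 ± 0.29 (adjusted p = 0.085 and 0.055). Slc25a20, the carrier that exchanges acylcarnitine across the inner membrane, rose by 0.61 ± 0.18 and 0.64 ± 0.18 (adjusted p = 0.0048 and 0.0022, limma). Slc22a5, the carnitine importer, fell by 1.19 ± 0.42 and by 1.90 ± 0.42 (adjusted p = 0.015 and 0.00011, limma), and Etfa, which accepts electrons from the dehydrogenases, fell by 0.65 ± 0.13 and by 1.05 ± 0.13 (adjusted p = 6.9e-05 and 3.8e-09).

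Among 8 regulators tested, the iv contrast gave 5 falls and 1 rise, and the ip contrast 6 falls and 1 rise. Beside them, 49.7% of all tested genes were called by iv (19% down) and 61.3% by ip (25.1% down). Ppargc1a, a coactivator of oxidative genes, fell by 0.84 ± 0.14 and by 0.66 ± 0.14 (adjusted p = 1.2e-06 and 5.3e-05, limma), Hnf4a, a proximal tubule nuclear receptor, by 1.03 ± 0.17 and by 1.52 ± 0.17 (adjusted p = 1.5e-06 and 1.1e-10), and Sirt3, a mitochondrial deacetylase, by 1.33 ± 0.17 and by 1.64 ± 0.17 (adjusted p = 8.1e-09 and 1.6e-11). Nrf1 was the regulator that rose, by 0.52 ± 0.16 and 0.75 ± 0.16 (adjusted p = 0.0066 and 8.6e-05, limma).

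Of 6 tested PPAR alpha targets outside the member list, 4 were higher and 1 lower at iv 400 mg/kg, and 2 higher and 1 lower at ip 400 mg/kg. Higher calls made up 30.7% of all tested genes by iv and 36.3% by ip, and lower calls 19% and 25.1%. Pdk4, which switches off pyruvate oxidation, rose by 1.63 ± 0.53 and 1.66 ± 0.53 (adjusted p = 0.0093 and 0.0061, limma), and Angptl4, a secreted lipase inhibitor, by 2.56 ± 0.50 and 2.48 ± 0.50 (adjusted p = 3.4e-05 and 3.5e-05). Cyp4a14, a fatty acid omega-hydroxylase, fell by 1.11 ± 0.41 and by 2.10 ± 0.41 (adjusted p = 0.021 and 2.1e-05, limma). Of 11 tested genes of fatty acid uptake and lipid droplets, 3 were lower and 1 higher by iv, and 4 lower and 2 higher by ip. These 4 and 6 called genes of 11 stand beside 49.7% and 61.3% of all tested genes called. The diacylglycerol acyltransferase Dgat2 fell by 1.69 ± 0.21 and by 2.04 ± 0.21, and the droplet coat gene Plin4 rose by 1.04 ± 0.43 and 1.56 ± 0.43 (limma, adjusted p from 2.7e-11 to 0.04).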

How the data were processed

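Kidney RNA of 48 mice was measured on 48 single-colour Affymetrix arrays. The submitters' processing notes name GCRMA for the deposited intensities, which are on a linear scale; no source used here gives its version or says which arrays were normalised together. Replicates are separate mice. The 48 columns were taken as log2. Rows were named by shifting the listed probe sets: rows 751 to 3250, 5001 to 11750 and 34251 to 36000 took the gene 64 rows later, 47 rows earlier and 16168 rows earlier, and other rows stayed unnamed; 22.6% of the 45101 rows were so named. The platform annotation gives 34958 probe sets 1 symbol, 932 several and 9211 none. A row was kept if its log2 intensity exceeded 3.47, the table median, on at least 6 arrays, and the kept row with the highest mean stood for its gene.

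All 8 groups entered 1 fit (limma 3.58.1 in R 4.3.3, lmFit and eBayes with trend, 40 residual degrees of freedom), with Benjamini-Hochberg adjustment over 5748 genes in each comparison and a threshold of 0.05. The script was tested on simulated data. The number of arrays limits the precision. Alternatives were other scalings, filters, rows, weights, covariates, groups, naming and left-out mice. Genes described in full are, at 400 mg/kg against saline by each route, the 8 largest falls and 6 largest rises past the threshold with all 6 treated mice on one side of the saline mean, plus textbook enzymes and genes called at other doses. The members and lists were chosen with earlier results of these data known. One iv 50 mg/kg mouse carries the number 78, out of sequence. Promoter sequences are from RefSeq (GRCm38.p6).

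On 4 iv arrays (mice 1, 9, 27 and 44) the median stood more than 0.08 above that of their group. Without them, the member results at 400 mg/kg by both routes changed as follows: 1 turned in sign, 3 gained a call, 1 lost its call and 53 kept theirs. All tested genes at iv 400 mg/kg then split into 1579 up and 1316 down, against 1767 and 1092. Array medians ran from 3.34 to 3.55 by iv and from 3.47 to 3.68 by ip.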

Additional observations from a re-analysis of the deposited data

Results flagged for a closer look

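Single mice stood far from the other 5 of their group (Dixon's test at 95%) in 20 of 232 combinations of gene and group tested, where chance flags about 1 in 20. Iv saline mouse 1 accounts for 6: Acadvl 10.5, Acox2 9.8, Acsl4 5.17, Cpt2 9.91 and Pex13 8.19, all below the other saline mice, and Cpt1a 10.3, above them. In the vancomycin groups of the iv route these were Acadvl at 10.73 in mouse 9 and Acot3 at 9.68 in mouse 12 (50 mg/kg), Acox3 at 5.64 in mouse 26 (200 mg/kg), and Cpt1c at 3.75 in mouse 47 and Pex6 at 7.15 in mouse 45 (400 mg/kg).

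By the ip route they were Echdc3 at 9.56 in saline mouse 64; Acot4 at 7.87 in mouse 67, Acsm3 at 5.84 in mouse 68 and Acox2 at 10.48 in mouse 72 (50 mg/kg); and Cpt1c at 2.4 in mouse 85, Pex13 at 9.63 in mouse 87 and Cpt2 at 10.23 in mouse 88 (200 mg/kg). At 400 mg/kg, mouse 106 had Acot9 at 11.04 and Cpt2 at 8.69.

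The effect of 400 mg/kg differed between routes, by a test of the difference itself in limma, for Acot8 (ip minus iv, -0.73 ± 0.18, adjusted p = 0.011). Route and array set cannot be told apart in this difference. Cpt1c also passed (1.74), but it was above the brightness filter only on vancomycin arrays and at background in saline by both routes, so this value is neither a size nor a tested difference.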

How the results depend on the processing

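No paired analysis was possible because every mouse has its own number. Leaving out 1 mouse at a time, 17 to 22 members were called at iv 400 mg/kg and 25 to 26 at ip 400 mg/kg. At iv 200 mg/kg, against 2 called, 1 was called with each array centred on its median, 1 with no filter, 0 with only the groups compared, 14 with array weights, 5 with the first residual principal component as covariate and 0 without the arrays that stand apart (chosen after seeing the data). At iv 400 against 200 mg/kg, 8 were called with only the groups compared, against 14. The route difference at 400 mg/kg, against 2, gave 1 with a stricter filter, 1 with only the groups compared, and 6 each with array weights and with the principal component. The route difference at 200 mg/kg gave 10 with array weights, against 0. Taking genes as listed, without the shift, gave 2 at iv 50 mg/kg and 0 for the route difference at 400 mg/kg. Acot2 at iv 400 mg/kg turned from -0.003 to 0.024 with array weights and 0.008 without the arrays that stand apart. Quantile normalisation gave 297 genes up and 149 down among all tested genes at iv 200 mg/kg, against 349 and 74. The causes of these changes were not tested. Dim genes (Acot2, Acox3, Cpt1c) are limited by background.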
